A study of Bos taurus with 14 samples.

Results

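Leukocytes and resident macrophages make up a small part of skeletal muscle, and their transcripts reach a whole-muscle array together with those of the fibres. The genes described here are 10 genes of this kind. *ARHGDIB* and *CCL14* had been selected on their difference in expression between the production systems, as measured on these same arrays, so their differences between the groups are given as a description with no test. The other 8 genes, *PTPRC*, *CD68*, *CD14*, *CD163*, *LAPTM5*, *CSF1R*, *TYROBP* and *AIF1*, were listed by name as markers of leukocytes or macrophages. The question was whether *ARHGDIB* and *CCL14* followed the cell markers, both between the production systems and among animals of the same system. On the array, 9 of the 10 genes had at least 1 probe set under their own symbol, a probe set being the group of short probes that reads 1 transcript. *CD163* had none. Together they had 12 probe sets of the 24016 bovine probe sets.

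Gene expression was measured in *M. longissimus dorsi* (LD) muscle of Charolais × Limousin heifers, on 1 Affymetrix bovine array per animal. The outdoor/pasture-fed group (7 arrays) had grazed for a year before slaughter, and the indoor/concentrate-fed group (7 arrays) had been housed over the same time on concentrate and straw, so that diet and housing differed together. Animals had been kept in several grazing or pen groups, which the sample labels do not give. All values below are deposited log2 values, and a difference is outdoor/pasture-fed minus indoor/concentrate-fed. A probe set is called varying where its standard deviation (SD) over the 14 arrays was above 0.01, which held for 9623 probe sets and for 11 of the 12 described here. The exception was a second probe set of *CD14*, at 5.96 on every array. Levels of different probe sets are not compared with each other. The mean of the 4 varying skeletal muscle markers lay between 13.61 and 13.77 on the 14 arrays, whose medians over varying probe sets were 8.65 to 8.76.

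As background, macrophages of muscle clear debris and support repair, and they carry the receptor for colony stimulating factor 1 (*CSF1R*), the lipopolysaccharide co-receptor *CD14*, the lysosomal glycoprotein *CD68*, the haemoglobin scavenger receptor *CD163*, the calcium-binding protein *AIF1* and the signalling adaptor *TYROBP*. *PTPRC* encodes CD45, a tyrosine phosphatase on the surface of nearly all white blood cells, and *LAPTM5* a lysosomal membrane protein of blood-forming cells. *ARHGDIB* encodes a GDP dissociation inhibitor, which holds small GTPases inactive in the cytosol and is abundant in blood cells. *CCL14* encodes a CC chemokine, a small secreted protein that attracts monocytes through the receptor CCR1.

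The transcripts of *ARHGDIB* and *CCL14* were also the targets of primer pairs designed by the study for quantitative PCR. In the study's PCR on a larger set of animals, which included those of the arrays, *ARHGDIB* was reported as not significantly different between the systems. Its direction was reported to be that of the arrays. The primers are shown because they mark the 2 transcripts on which the question turns, each 5′ to 3′ in lower case, and no PCR value is used here.
ARHGDIB forward: ctggattctcctggtggttactg
ARHGDIB reverse: ttggcagggaacgtgatgat
CCL14 forward: gtgccaacccccgtgat
CCL14 reverse: gggtcactcctccagttcctt

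*ARHGDIB* ranged from 9.08 to 9.52 with a median of 9.33 in the outdoor/pasture-fed animals, and from 8.66 to 9.03 with a median of 8.82 in the indoor/concentrate-fed animals. The groups did not overlap, and the lowest outdoor animal (replicate 7) stood 0.05 above the highest indoor animal (replicate 2). The group means were 9.28 ± 0.17 and 8.85 ± 0.14 (SD, n = 7 each), a difference of 0.44 (SE 0.08) or 1.35-fold. *CCL14* ranged from 9.87 to 10.51 with a median of 10.26 outdoors, and from 9.20 to 9.80 with a median of 9.64 indoors. Here too every outdoor animal was above every indoor animal, with a gap of 0.07. The means were 10.20 ± 0.22 and 9.57 ± 0.22 (SD, n = 7 each), a difference of 0.62 (SE 0.12) or 1.54-fold. Among all varying probe sets the groups did not overlap for 78 of 9623 (0.811%). Since both genes had been chosen for this contrast, nothing is read from their place among these.

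**Figure D1:**
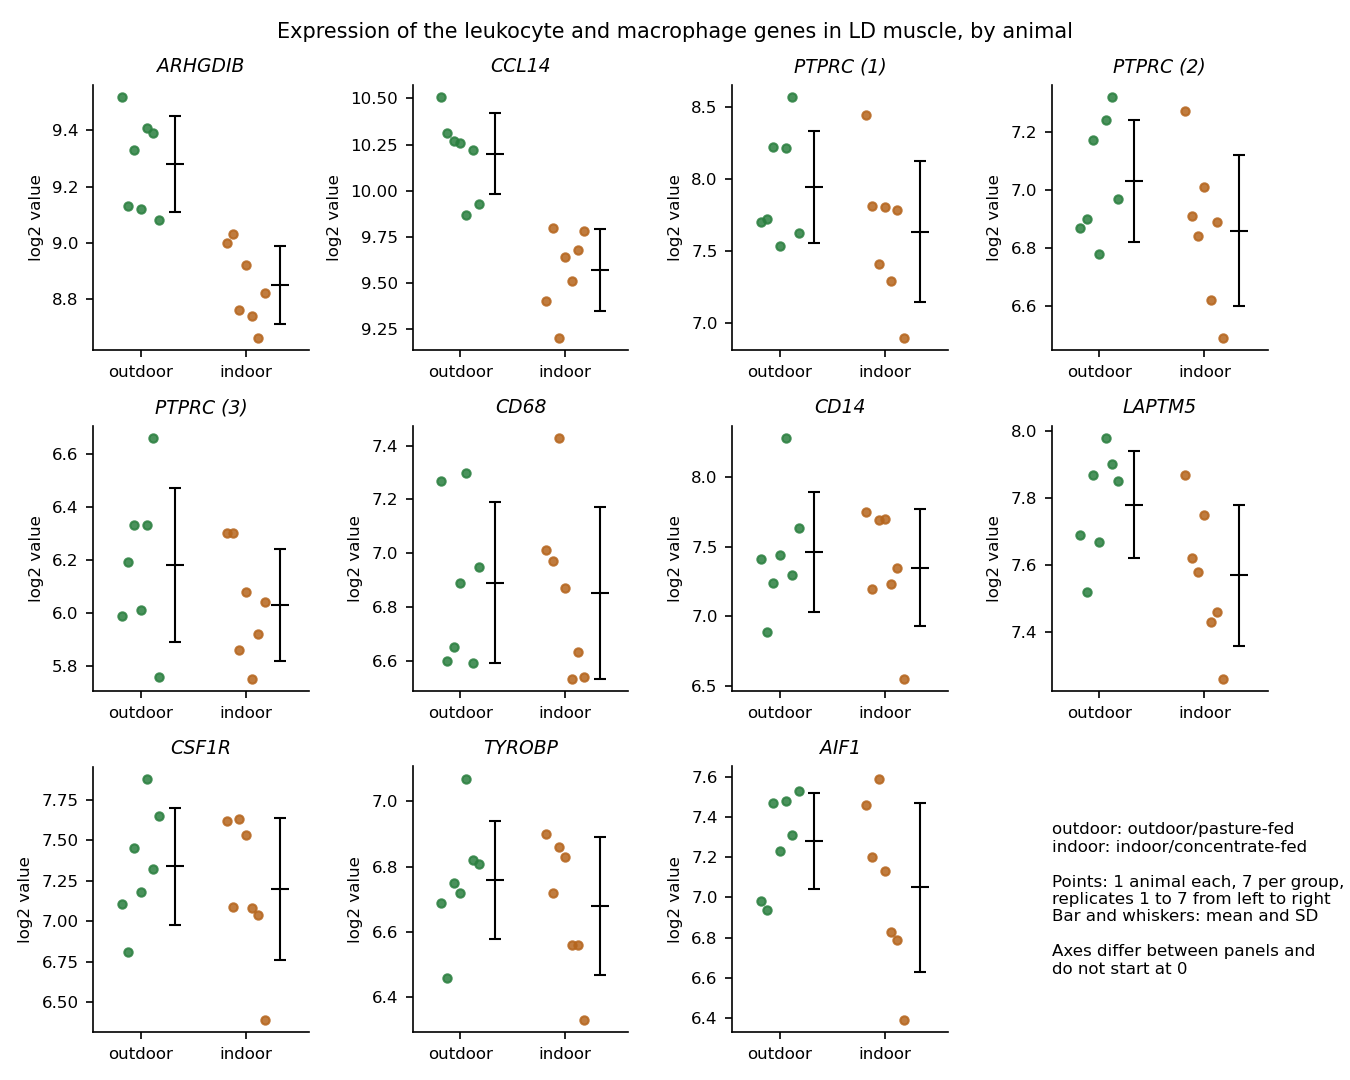
Deposited log2 value (y axis) of the 11 varying probe sets of the leukocyte and macrophage genes in each animal, with the mean and SD of each group of 7 beside the points. PTPRC (1), (2) and (3) are its 3 probe sets in falling order of mean level. The groups do not overlap in *ARHGDIB* and *CCL14*, which were chosen for this difference. They overlap in every marker panel, as in all but 0.811% of the varying probe sets.

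None of the 7 measured cell markers differed between the production systems past the threshold. The limma fit over all 24016 probe sets called 4 (0.0167%) at an adjusted p under 0.05, and none of them was a probe set of a cell marker. All 9 varying marker probe sets had a higher mean in the outdoor/pasture-fed animals, by 0.04 to 0.31, and in each of them the groups overlapped. Among all varying probe sets 47.5% had a higher outdoor mean, with a median difference of -0.01. *LAPTM5* was the only marker with an unadjusted p under 0.05, a level that 9.23% of the varying probe sets reached with a higher and 10.7% with a lower outdoor mean. Fewer cells of a type and less RNA per cell cannot be told apart in values of whole muscle.

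Of the general leukocyte markers, *PTPRC* was read by 3 varying probe sets. The one with the highest mean ranged from 7.53 to 8.57 (median 7.72) outdoors and from 6.89 to 8.44 (median 7.78) indoors. The median was thus slightly lower outdoors although the mean was higher by 0.31 (SE 0.24, 95% interval -0.21 to 0.82, adjusted p = 0.68 by limma). Its other 2 probe sets differed by 0.17 (SE 0.12, adjusted p = 0.652 by limma) and 0.15 (SE 0.14, adjusted p = 0.75 by limma). *LAPTM5* ranged from 7.52 to 7.98 (median 7.85) outdoors and from 7.26 to 7.87 (median 7.58) indoors. Outdoor replicates 5 and 6 were above every indoor animal, and the difference was 0.21 (SE 0.10, 95% interval 0.00 to 0.43, adjusted p = 0.432 by limma). The two-sided exact permutation test of *LAPTM5* alone gave p = 0.0542.

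Of the macrophage markers, *CSF1R* ranged from 6.81 to 7.88 (median 7.32) outdoors and from 6.39 to 7.63 (median 7.09) indoors, a difference of 0.14 (SE 0.21, 95% interval -0.32 to 0.61, adjusted p = 0.859 by limma). Outdoor replicate 5 was its highest and indoor replicate 7 its lowest animal. *TYROBP* ranged from 6.46 to 7.07 (median 6.75) outdoors and from 6.33 to 6.90 (median 6.72) indoors, and the same 2 animals stood at the ends. It differed by 0.08 (SE 0.10, 95% interval -0.14 to 0.30, adjusted p = 0.835 by limma). *AIF1* ranged from 6.94 to 7.53 (median 7.31) outdoors and from 6.39 to 7.59 (median 7.13) indoors. Its difference was 0.22 (SE 0.18, 95% interval -0.17 to 0.62, adjusted p = 0.698 by limma).

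*CD14* ranged from 6.89 to 8.28 (median 7.41) outdoors and from 6.55 to 7.75 (median 7.35) indoors. It differed by 0.10 (SE 0.23, 95% interval -0.39 to 0.59, adjusted p = 0.915 by limma), and without outdoor replicate 5, its highest animal, or indoor replicate 7, its lowest, by -0.03. *CD68* ranged from 6.59 to 7.30 (median 6.89) outdoors and from 6.53 to 7.43 (median 6.87) indoors, a difference of 0.04 (SE 0.17, 95% interval -0.32 to 0.40, adjusted p = 0.954 by limma). The direction of *CD68* turned when any 1 of 4 animals was left out. Without indoor replicate 7, the lowest animal in 6 of 7 markers, the difference was 0.01 for *CSF1R*, 0.02 for *TYROBP*, 0.11 for *AIF1* and 0.18 for *PTPRC*. For *PTPRC* it was 0.20 without outdoor replicate 6. Without outdoor replicate 5 it was 0.05 for *CSF1R* and 0.03 for *TYROBP*, and without outdoor replicate 2, low in most markers, it was 0.23 for *CSF1R* and 0.13 for *TYROBP*. Exact permutation tests of the marker probe sets other than *LAPTM5* gave p between 0.195 and 0.832. The intervals of *PTPRC* (highest-mean probe set), *CD14*, *CSF1R* and *AIF1* reach beyond 0.44, the difference for which *ARHGDIB* was chosen. Those of *LAPTM5* and the other 2 *PTPRC* probe sets end at 0.43 to 0.44. A difference near that size is thus not shown to be absent for these genes. The intervals of *CD68* and *TYROBP* end at 0.40 and 0.30.

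**Figure D2:**
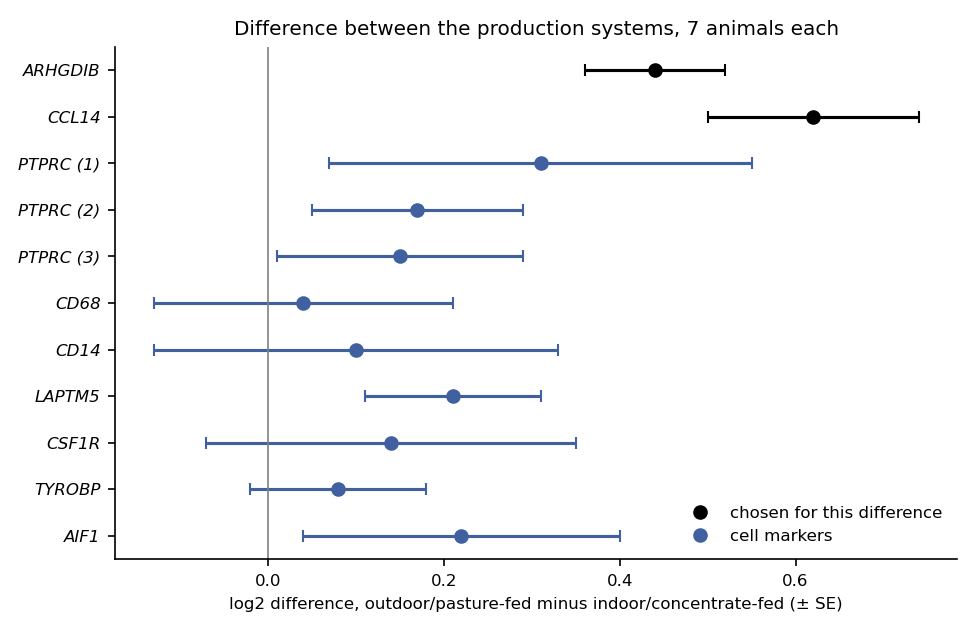
Log2 difference of outdoor/pasture-fed minus indoor/concentrate-fed means (x axis, point and SE from limma) for the 11 varying probe sets, with *ARHGDIB* and *CCL14* in black and the cell markers in blue. The markers, listed by name, lie between 0.04 and 0.31. *ARHGDIB* (0.44) and *CCL14* (0.62) were chosen for this difference, so nothing is read from their larger values.

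Among animals of the same group the cell markers varied together, less clearly so for the third *PTPRC* probe set. The deviations of each animal from its group mean were correlated for the 21 pairs of the 7 measured markers, using the probe set with the highest mean of each gene. Pearson's r was positive in all 21 pairs, from 0.08 for *PTPRC* with *CD68* to 0.95 for *CSF1R* with *TYROBP*, with a median of 0.73. For *PTPRC* it depended on the probe set. The third had r of -0.13 with *CD68*, 0.01 with *CD14*, 0.08 with *CSF1R*, 0.18 with *AIF1*, 0.26 with *TYROBP* and 0.44 with *LAPTM5*. These r are over 14 arrays that share the production systems and the processing, and are given as a description. The marker deviations also had r of 0.23 to 0.58 with those of the array medians, whose part in these r was not tested. A limma fit with the group and the level of *CSF1R* as terms tested the slope of every other probe set, so that only the spread within groups entered. It called 7 of 24015 probe sets (0.0291%), and *TYROBP* (slope 0.46, SE 0.04, adjusted p = 0.00828 by limma) and *CD14* (slope 0.98, SE 0.12, adjusted p = 0.0269 by limma) were among them. *AIF1* had a slope of 0.76 (SE 0.11, adjusted p = 0.0515 by limma) and *LAPTM5* of 0.41 (SE 0.06, adjusted p = 0.0912 by limma). Leaving out 1 array in turn, the slopes stayed between 0.44 and 0.48 for *TYROBP* and at 0.86 or above for *CD14*, but the calls did not all hold. *TYROBP* no longer passed in 4 of 14 cases (without outdoor replicate 2 or 5, or indoor replicate 1 or 7) and *CD14* in 7 of 14 (without any of these 4, outdoor replicate 6, or indoor replicate 3 or 4).

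The level of *PTPRC* was set against the other genes in the same way. The same fit with its highest-mean probe set as the term called 4 of 24015 probe sets (0.0167%), and its second probe set was among them (slope 0.50, SE 0.04, adjusted p = 0.00125 by limma). None of the other markers passed. The r of the highest-mean probe set was 0.81 with *LAPTM5*, 0.62 with *TYROBP*, 0.56 with *CSF1R*, 0.55 with *AIF1*, 0.47 with *CD14* and 0.08 with *CD68*. With the third probe set it was lower for each of these markers. At an unadjusted p under 0.05, which 1.9% of varying probe sets reached with a positive slope on *PTPRC*, were 3 of 4 varying pan-leukocyte genes, 4 of 7 varying lymphocyte genes and 1 of 9 varying macrophage and monocyte genes. The T cell receptor chains *CD3E* (slope 0.28, adjusted p = 0.114 by limma) and *CD3G* (slope 0.28, adjusted p = 0.114 by limma) and the T cell kinase *ZAP70* (slope 0.65, adjusted p = 0.194 by limma) were among the lymphocyte genes, and were named after their values were seen.

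The same few animals stood at the ends for several markers. Outdoor replicate 5 had the highest value of its group in 5 of the 7 markers, and the mean of the 7 stood at 7.74 in this animal against 6.99 to 7.43 in the other outdoor animals. The median of its array was also the highest of the 14, at 8.76. Outdoor replicate 2 was lowest in 5 of 7. Indoors, replicate 7 was lowest in 6 of 7 markers with a mean of 6.62, while replicate 1 was highest in 4 and replicate 3 in the other 3. The mean of the 7 markers was 7.35 ± 0.23 outdoors and 7.19 ± 0.32 indoors (SD, n = 7 each), a difference of 0.16.

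**Figure D3:**
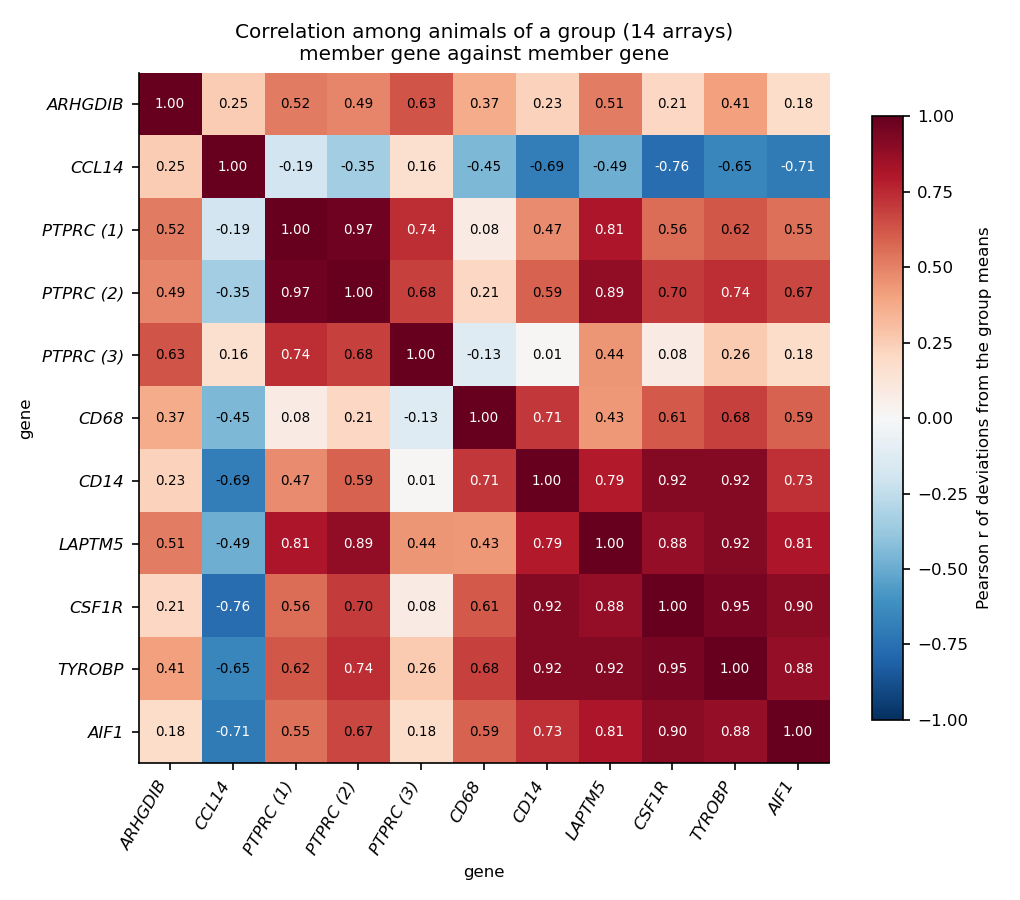
Pearson r of the deviations from the group means between each pair of the 11 varying probe sets over 14 arrays, from -1 (blue) to 1 (red). The macrophage markers form a red block, *ARHGDIB* is weakly positive with all markers (0.18 to 0.63), and *CCL14* is negative with all but the third *PTPRC* probe set (0.16). Of all varying probe sets 38.1% have a negative r with *ARHGDIB*.

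Against *ARHGDIB*, the cell markers had weak positive relations among animals of a group. All 9 marker probe sets had a positive slope on *ARHGDIB*, and none passed the threshold. Of all varying probe sets 38.1% had a negative r with *ARHGDIB*, so a positive slope was the more frequent sign in general. Over all probe sets this limma fit called 0 of 24015 (0%), and at an unadjusted p under 0.05 it had 282 varying probe sets with a positive slope (2.93%). The marker nearest to it was *PTPRC*, with slopes of 1.49 (SE 0.73), 0.73 (SE 0.39) and 1.04 (SE 0.38) for its 3 probe sets, and r of 0.52, 0.49 and 0.63. The third was the only marker probe set with an unadjusted p under 0.05. *LAPTM5* followed with a slope of 0.60 (SE 0.30) and r = 0.51. The other markers had r of 0.18 (*AIF1*) to 0.41 (*TYROBP*). The adjusted p was 0.999 for all of these slopes.

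Within each group of 7, taken apart, the r of *ARHGDIB* with the 7 markers was -0.09 to 0.55 outdoors (median 0.38) and 0.16 to 0.63 indoors (median 0.39). The highest outdoors was that with *PTPRC* (r = 0.55, two-sided exact permutation p = 0.182, Spearman's coefficient = 0.50, exact p = 0.267), and the highest indoors that with *LAPTM5* (r = 0.63, exact permutation p = 0.132, Spearman's coefficient = 0.64, exact p = 0.139). After adjustment over the 28 correlations of this kind these p-values were 0.424 and 0.369 for r. Without the 2 animals farthest from the marker median, r with *PTPRC* outdoors was 0.55 and r with *LAPTM5* indoors 0.72. For 5 outdoor markers, *CD68*, *CD14*, *LAPTM5*, *CSF1R* and *TYROBP*, r turned from positive to between -0.69 and -0.25, so these relations rest on the 2 animals left out. Indoors the same step moved r the other way for *CD68* (0.30 to 0.84), *CSF1R* (0.24 to 0.55) and *AIF1* (0.39 to 0.91), and *CD14* went from 0.16 to -0.06. The deviations of *ARHGDIB* also had r = 0.59 with those of the array medians, a larger r than with 8 of the 9 marker probe sets. The marker probe sets had r of 0.23 (*AIF1*) to 0.58 (*CD14*) with the array medians. Without outdoor replicate 5 these were 0.15 (*AIF1*) to 0.48 (*LAPTM5*), and 0.60 for *ARHGDIB*. The part of the array median in these values was not tested.

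Among animals of a group, *CCL14* had negative slopes with the macrophage markers, none past the adjusted threshold. The animals with the highest *CSF1R* outdoors, replicates 5 and 7, had the lowest *CCL14*, at 9.87 and 9.93 against 10.22 to 10.51 in the other 5. Indoors, replicates 1 and 3 had the highest *CSF1R* and the lowest *CCL14*, at 9.40 and 9.20 against 9.51 to 9.80. The slope of *CSF1R* on *CCL14* was -1.38 (SE 0.36, adjusted p = 0.248 by limma). Those of *AIF1* (-1.10, SE 0.33, adjusted p = 0.315 by limma), *CD14* (-1.33, SE 0.42, adjusted p = 0.337 by limma) and *TYROBP* (-0.58, SE 0.20, adjusted p = 0.4 by limma) were negative too. *LAPTM5* (-0.41, SE 0.22) and *CD68* (-0.63, SE 0.38) had negative slopes too, with adjusted p of 0.632 and 0.673 by limma. The 3 *PTPRC* probe sets had -0.38, -0.38 and 0.18. At an unadjusted p under 0.05, 4 of 7 markers had a negative slope, against 8.22% of the varying probe sets, and without outdoor replicate 5 it was 3 of 7. None passed after adjustment, and neither did any other of the 24015 probe sets (0%). The deviations of *CCL14* had r = -0.31 with those of the array medians, and 0.00 without outdoor replicate 5. The part of the array median in these slopes was not tested.

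Within each group of 7, r of *CCL14* was negative with all 7 markers. Outdoors it lay between -0.82 and -0.18 with a median of -0.71, and indoors between -0.72 and -0.19 with a median of -0.66. With *CSF1R* it was -0.82 outdoors (two-sided exact permutation p = 0.024, Spearman's coefficient = -0.86, exact p = 0.0238) and -0.72 indoors (exact permutation p = 0.0585, Spearman's coefficient = -0.71, exact p = 0.0881). With *AIF1* it was -0.79 outdoors (exact permutation p = 0.0387, Spearman's coefficient = -0.82, exact p = 0.0341) and -0.70 indoors (exact permutation p = 0.08, Spearman's coefficient = -0.61, exact p = 0.167). The adjusted p was 0.336 for these 4 values of r. Without the 2 animals farthest from the marker median, r with *CSF1R* was -0.88 outdoors and -0.56 indoors, and r with *AIF1* -0.68 and -0.28. Indoors the same step turned r positive for *PTPRC* (-0.19 to 0.75) and *LAPTM5* (-0.37 to 0.16), and in all other cases it stayed negative. The relation of *CCL14* with *ARHGDIB* itself was weak, with r = 0.25 and a slope of 0.35 (SE 0.41, adjusted p = 0.999 by limma) of *CCL14* on *ARHGDIB*. This slope was 0.07 without outdoor replicate 1 and 0.55 without outdoor replicate 5.

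**Figure D4:**
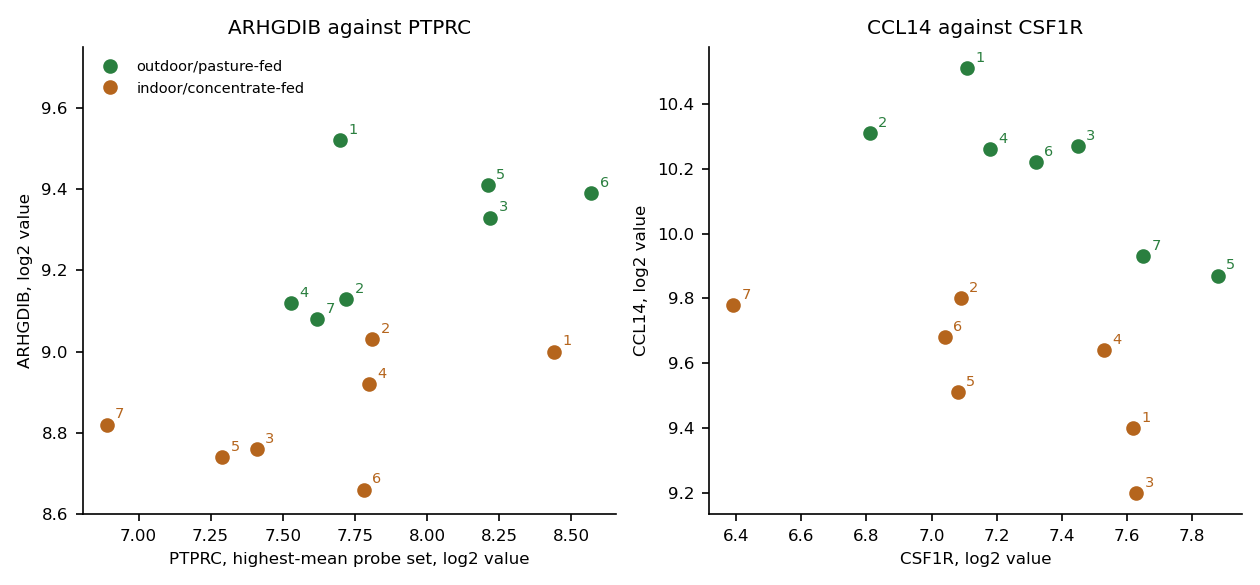
Level of *ARHGDIB* against *PTPRC* (left) and of *CCL14* against *CSF1R* (right), log2 values on both axes, 1 point per animal numbered by replicate. In the right panel *CCL14* falls as *CSF1R* rises within each group. *CCL14* was chosen for its difference and its groups do not overlap. The outdoor animals therefore lie above the indoor ones at any *CSF1R* level, and nothing is read from this.

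The difference between the production systems in *ARHGDIB* and *CCL14* was also taken with 1 marker at a time as a covariate. Both genes had been chosen for this difference. The markers themselves differed by only 0.04 to 0.31, which limits how far a covariate could move it, so nothing about the cells is read from what remained. For *ARHGDIB* the difference was 0.44 without a covariate and between 0.35 (with *LAPTM5*) and 0.43 with 1 of the 7 markers, that is 79% to 98.3% of its size. *PTPRC* left 0.38 (SE 0.08). For *CCL14* the difference was 0.62 without a covariate and 0.64 to 0.75 with a marker. Its slopes on the markers were negative and the markers had higher outdoor means, so each covariate could only make it larger. The largest was with *LAPTM5* (0.75, SE 0.13), and *CSF1R* gave 0.68 (SE 0.08). Leaving out 1 array in turn, these adjusted differences were 0.28 to 0.46 for *ARHGDIB* and 0.56 to 0.80 for *CCL14*. The array median as covariate left 103% of the difference of *ARHGDIB* and 98.2% of that of *CCL14*. All of these are descriptions with no test.

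**Figure D5:**
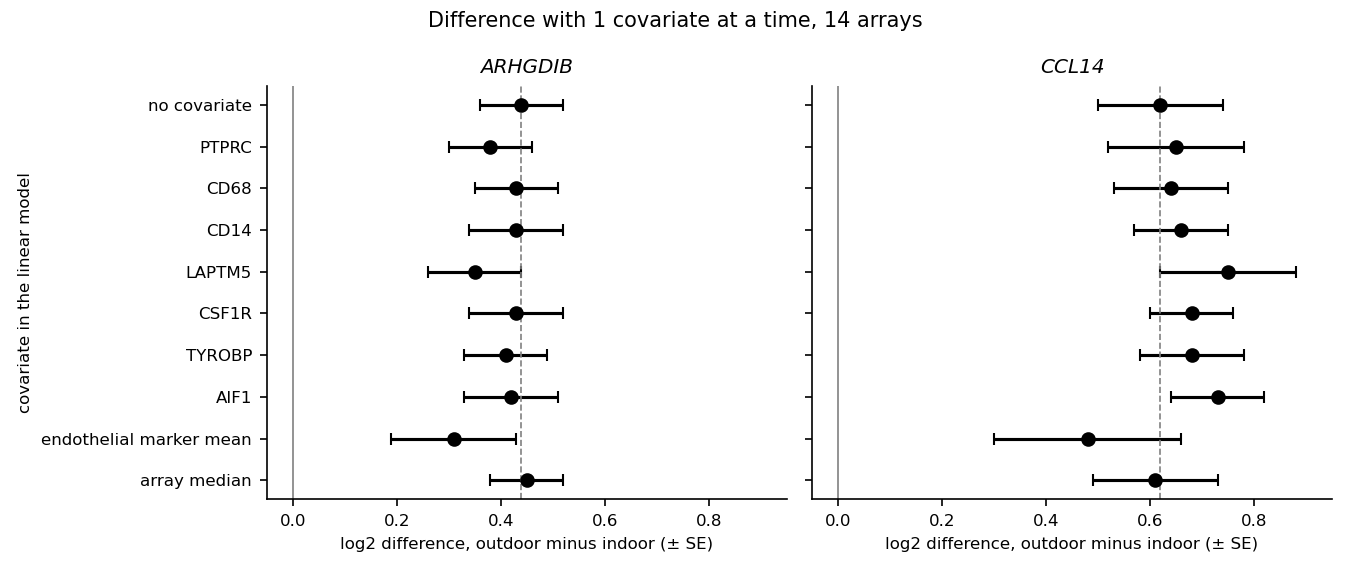
Log2 difference between the production systems (x axis, point and SE) in *ARHGDIB* (left) and *CCL14* (right) with no covariate and with 1 covariate at a time, 14 arrays. The dashed line marks the value without a covariate, which the markers move to 0.35 at the lowest for *ARHGDIB* and to 0.75 at the highest for *CCL14*.

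Further genes of the same cells were taken from fixed lists. Of 25 macrophage and monocyte genes 17 were measured and 9 varied, and none passed the threshold between the production systems, with a median difference of 0.05 (-0.01 to 0.17). The lysosomal protease gene *CTSS* differed by 0.17 (SE 0.12, adjusted p = 0.66 by limma) and the Fc gamma receptor gene *FCGR1A* by 0.12 (SE 0.07, adjusted p = 0.535 by limma). All 9 had a negative slope on *CCL14* and 7 of them an unadjusted p under 0.05, as against 8.22% of varying probe sets. Without outdoor replicate 5 it was 5 of 9. All 9 had a positive slope on *CSF1R*, 8 of them at an unadjusted p under 0.05, which 8.59% of varying probe sets reached. Chosen after their values were seen, the scavenger receptor gene *STAB1* had a slope of -0.47 (SE 0.09, adjusted p = 0.161 by limma) on *CCL14*, and *FCER1G*, the Fc receptor gamma chain, one of -0.82 (SE 0.16, adjusted p = 0.164 by limma). On *ARHGDIB*, 7 of the 9 had a positive slope and none an unadjusted p under 0.05. Of all varying probe sets 38.1% had a negative r with *ARHGDIB*, so nothing is read from the 7.

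Lymphocyte genes were set against both genes in the same way, and the difference between the 2 sets of slopes was not tested. Of 20 lymphocyte genes 17 were measured and 7 varied, with a median difference of 0.10 between the systems and none past the threshold. The T cell receptor chain *CD3E* differed by 0.13 (SE 0.08, adjusted p = 0.562 by limma) and the B cell surface gene *MS4A1* by 0.10 (SE 0.06, adjusted p = 0.584 by limma). Of all varying probe sets 38.1% had a negative r with *ARHGDIB*. On *ARHGDIB*, 6 of the 7 had a positive slope and 4 an unadjusted p under 0.05, against 2.93% of varying probe sets, with a median r of 0.55 (0.09 over all varying probe sets). They were *CD247*, *CD3G*, *CD3E* and *ZAP70*, with r of 0.55 to 0.65 and an adjusted p of 0.999, and leaving out 1 array gave 2 to 5 of 7 (2 without outdoor replicate 4, 6 or 7 or indoor replicate 1, 3 or 5). On *CCL14*, none of the 7 had an unadjusted p under 0.05 and the median r was 0.08.

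Of 18 pan-leukocyte genes 13 were measured and 4 varied, with a median difference of 0.09 and none past the threshold. The tetraspanin gene *CD53* and the actin-bundling gene *LCP1* each differed by 0.10 (SE 0.16 and 0.07, adjusted p = 0.866 and 0.629 by limma). A negative r with *ARHGDIB* was found in 38.1% of all varying probe sets. All 4 had a positive slope on *ARHGDIB*, 2 of them (*CD53* and *CD48*) at an unadjusted p under 0.05, against 2.93% of varying probe sets. Without outdoor replicate 2 or 5 or indoor replicate 1 it was 0 of 4. Of 12 granulocyte and mast cell genes 8 were measured and 4 varied, with a median difference of 0.25 and none past the threshold. The mast cell receptor gene *KIT* differed by 0.36 (SE 0.18, adjusted p = 0.477 by limma) and the neutrophil protein gene *S100A8* by 0.21 (SE 0.13, adjusted p = 0.562 by limma). On *CCL14*, *KIT* and the IgE receptor gene *FCER1A* were the 2 of these 4 with a negative slope at an unadjusted p under 0.05, against 8.22% of varying probe sets.

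The gene family of *CCL14* held members on both sides of 0. Of 25 CC chemokines and receptors 18 were measured and 10 varied, 6 with a higher and 4 with a lower outdoor mean. At an unadjusted p under 0.05, 3 of the 10 were higher, against 9.23% of varying probe sets. Among them were *CCL22* at 0.59 (SE 0.19, adjusted p = 0.271 by limma) and *CCL4* at 0.29 (SE 0.09, adjusted p = 0.271 by limma), which attract leukocytes. On *CCL14*, 9 of the 10 had a negative slope, and the atypical chemokine receptor genes *ACKR2* (-0.88, SE 0.24, adjusted p = 0.268 by limma) and *ACKR3* (-0.96, SE 0.33, adjusted p = 0.399 by limma) and the eotaxin gene *CCL11* (-1.04, SE 0.44, adjusted p = 0.501 by limma) had unadjusted p under 0.05, which 8.22% of varying probe sets reached with a negative slope. None of the 3 varying genes among 14 ligands and partners of the marker receptors differed at an unadjusted p under 0.05. They included *SIRPA*, a receptor of myeloid cells (-0.16, SE 0.10, adjusted p = 0.604 by limma), and the haem oxygenase gene *HMOX1* (0.14, SE 0.22, adjusted p = 0.87 by limma).

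Markers of other cell types of muscle were measured beside these genes. Of 16 endothelial markers 15 were measured and 13 varied, and all 13 had a higher outdoor mean, 11 at an unadjusted p under 0.05 (9.23% of varying probe sets) and none past the adjusted threshold. Leaving out 1 array gave 8 to 12 of 13. The adhesion gene *PECAM1* differed by 0.54 (SE 0.11, adjusted p = 0.147 by limma) and the cadherin gene *CDH5* by 0.59 (SE 0.15, adjusted p = 0.2 by limma). The mean of the 13 ranged from 8.54 to 8.97 outdoors and from 8.11 to 8.63 indoors. With this mean as a covariate, chosen after seeing the data, the difference of *ARHGDIB* was 0.31 (SE 0.12, 71.8%) and that of *CCL14* 0.48 (SE 0.18, 77.3%). This mean itself differed between the groups, so the model divides between them a difference that they share. Among animals of a group, the endothelial mean had r = 0.37 with *ARHGDIB* and 0.30 with *CCL14*, and its part in their differences was not tested.

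None of the 9 fibroblast markers passed the threshold between the systems. All 9 varied, with a median difference of 0.11 and none at an unadjusted p under 0.05. The matrix proteoglycan gene *DCN* differed by 0.21 (SE 0.15, adjusted p = 0.646 by limma) and the growth factor receptor gene *PDGFRA* by 0.14 (SE 0.19, adjusted p = 0.85 by limma). On *CCL14* all 9 had a negative slope and 7 an unadjusted p under 0.05 (8.22% of varying probe sets), or 5 without outdoor replicate 5. On *CSF1R* all 9 had a positive slope and 7 an unadjusted p under 0.05 (8.59% of varying probe sets). The r of their list means with *CCL14* was -0.71 for fibroblast markers and -0.77 for macrophage and monocyte genes. Negative slopes on *CCL14* were thus measured for genes of connective tissue as well as for those of macrophages, and the part of either in the other was not tested.

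Of 8 adipocyte markers 7 were measured and varied, 2 higher and 5 lower outdoors. The lipase genes *LPL* (0.58, SE 0.26, adjusted p = 0.427 by limma) and *PNPLA2* (0.30, SE 0.12, adjusted p = 0.388 by limma) were the 2 higher. Both had unadjusted p under 0.05, which 9.23% of varying probe sets reached with a higher outdoor mean. The 5 lower were *CIDEC* (-0.39), *LEP* (-0.22), *FABP4* (-0.22), *CIDEA* (-0.13) and *ADIPOQ* (-0.07), none at an unadjusted p under 0.05. Of 8 smooth muscle and pericyte markers 7 were measured and 6 varied, and the pericyte gene *RGS5* differed by 0.70 (SE 0.17, adjusted p = 0.188 by limma) and the actin gene *ACTA2* by 0.43 (SE 0.23, adjusted p = 0.524 by limma). Of 8 red blood cell markers 6 were measured and 2 varied, *AHSP* (-0.12, SE 0.06, adjusted p = 0.505 by limma) and *HBB* (-0.02, SE 0.11, adjusted p = 0.964 by limma). Of 11 skeletal muscle markers 9 were measured and 4 varied, and the fast myosin gene *MYH1* differed by 0.14 (SE 0.03, adjusted p = 0.148 by limma) and the fast troponin gene *TNNI2* by -0.07 (SE 0.03, adjusted p = 0.402 by limma).

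The genes with the largest positive r with *ARHGDIB* and *CCL14* held none of the members. By r of the deviations over 14 arrays, those nearest to *ARHGDIB* were *ATP6V1E1*, a proton pump subunit (0.86), *ECH1*, an enzyme of fatty acid oxidation (0.83), *NTAN1* (0.80), *LPAR6*, a lysophosphatidic acid receptor (0.77), and *NCOA7* (0.77). Those nearest to *CCL14* were *RNF157* (0.91), *SYNJ2BP* (0.87), *EBAG9* (0.85), *DCAF6* (0.84) and the glycosyltransferase gene *GCNT1* (0.84). None of the slopes passed the threshold, with adjusted p of 0.999 for the first 5 and 0.121 to 0.164 by limma for the others. Of 9622 varying probe sets each, only those with 1 symbol could be named. The genes listed are the extremes of those and are given as a description.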

How the data were processed

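LD muscle RNA of 14 heifers was hybridised to Affymetrix bovine arrays. FARMS, applied by the authors after quantile normalisation, made 1 value per probe set, and these deposited log2 values were used as they are. FARMS gives nearly one value on every array to probe sets it finds uninformative (59.9% here), and the authors' filter on these was not applied. Of 24128 probe sets 112 controls were left out. Gene names came from the platform annotation, where 13292 probe sets had 1 symbol, 86 several and 10638 none.

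Differences and within-group slopes (group plus the level of 1 gene) were fitted with limma 3.58.1 in R 4.3.3, with Benjamini-Hochberg adjustment over the whole table and a threshold of 0.05. They were tested on simulated data. Exact permutations covered 3432 assignments of arrays (smallest p 0.000583) or all orders of 7 animals, computed with NumPy 2.4.6. Ranks came from SciPy 1.17.1. The number of arrays limits the precision. Named are all members, the 2 varying genes of smallest p in each list unless some passed (then up to 6), and the 5 genes nearest to *ARHGDIB* and to *CCL14*. Other list genes named for their slopes were chosen after their values were seen. The adipocyte markers with a lower outdoor mean are named beside the 2 of smallest p. A list gene is represented by its probe set of highest mean. Members and lists were chosen with earlier results of these data known. The fits on *CSF1R* and *PTPRC*, the endothelial and array-median covariates and the list counts without 1 array were added after seeing the data. Alternatives were array weights, a replicate block, varying probe sets only, a trended or a robust prior, a further quantile step, array medians set equal, the probe set of highest SD for a gene, and leaving out arrays. Quantitative PCR values were not used here. The result of 1 gene list is not reported here.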

Additional observations from a re-analysis of the deposited data

Results flagged for a closer look

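Among 74 groups of 7 values, from 37 probe sets, 4 held an animal that stood apart by Dixon's test, and chance alone gives about 1 in 20. None was a probe set of the 10 leukocyte and macrophage genes. *CTSS*, a macrophage protease, was lowest in indoor/concentrate-fed replicate 7 at 7.97, with the next animal at 8.32, and the same animal was lowest in 6 of the 7 cell markers. *HBB* was highest in outdoor/pasture-fed replicate 2 at 6.08, with the next at 5.52. *PNPLA2* was highest in indoor/concentrate-fed replicate 2 at 8.19 (next 7.78), and *LPL* was lowest in indoor/concentrate-fed replicate 3 at 10.20 (next 11.04).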

How the results depend on the processing

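No marker passed the threshold between the production systems, and no slope on *ARHGDIB* or *CCL14* of any member, under any alternative. Over all probe sets the count between the systems was 4, with 33 among varying probe sets only, 26 with array medians centred, and 1 to 8 without 1 array (1 without outdoor replicate 1, 3, 4, 5 or 7 or indoor replicate 3). The count of slopes on *ARHGDIB* was 0 throughout. That on *CCL14* was 0, with 22 (20 negative) among varying probe sets only, 6 with array medians centred, and 0 to 1 without 1 array. The slopes on *CSF1R* went from 7 to 60 and those on *PTPRC* from 4 to 11 among varying probe sets only, and without 1 array to 0 to 12 and 1 to 7. Among varying probe sets only, *AIF1* (adjusted p = 0.0133 by limma) and *LAPTM5* (0.039) passed on *CSF1R*. *AIF1* also passed by limma with a trended prior (0.0483), array medians centred (0.0417) or array weights (0.0487). Leaving out 1 array, it passed only without indoor replicate 2 (0.0369 by limma). With array weights *CD14* did not (0.0516 by limma). The fit on varying probe sets only adjusts over fewer probe sets and also has a larger prior df (2.02 against 0.214 between the systems), and which of these changed the counts was not tested. The cause of the other changes was not tested.

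Replicate numbers are shared by the groups, but same-numbered animals had r between -0.18 and 0.24, so the numbers do not pair them. With the replicate block the count between the systems was 2 and the counts on *CSF1R* and *PTPRC* were 0. Of the 14 animals 3 correlated best with the same number of the other group.

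Differences turned for *CD68* with array weights (-0.0037) and without 1 array (-0.03 to 0.14), and for *CD14* without outdoor replicate 5 or indoor replicate 7 (-0.03, range -0.03 to 0.20). The slope of the third *PTPRC* probe set on *CCL14* turned with the replicate block (-0.0049) and without outdoor replicate 7 (-0.05, range -0.05 to 0.38), and that on *CSF1R* without indoor replicate 1 (-0.02, up to 0.14). The slope of *CD68* on *PTPRC* turned without indoor replicate 1 (-0.0025) or 7 (-0.08, up to 0.19). Without the 2 animals farthest from the marker median, r with *ARHGDIB* outdoors became -0.69 for *CD68*, -0.62 for *CD14*, -0.25 for *LAPTM5*, -0.54 for *CSF1R*, -0.38 for *TYROBP* and 0.08 for *AIF1*, and indoors -0.06 for *CD14*. For *CCL14* indoors it became 0.75 with *PTPRC* and 0.16 with *LAPTM5*. With the probe set of highest SD, 0 skeletal muscle markers were higher and 2 lower at an unadjusted p under 0.05.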
